A study of Mus musculus with 8 samples.

Results

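Genes of glycolysis, of lactate handling and of pyruvate entry into mitochondria were followed through sustained neuronal activity. The list held 34 genes, of which 30 were measured, among 19938 genes tested. A listed gene counted as measured when its symbol stood alone on at least 1 array row, and where several probe sets (transcript clusters) carried it, the one with the highest mean over the 8 arrays was used. Of the other 4 genes, Gapdh appeared only on rows shared by several symbols, and Gpi1, Eno1 and Mpc2 were not analysed here. The arrays held RNA from hippocampal neurons of ICR mice, taken at embryonic day 17.5 and cultured for 10 days. The cultures had received 50 µM bicuculline, a blocker of inhibitory GABA-A receptors that raises firing in such cultures, for 0, 30, 180 or 300 min, and each time had 2 cultures labelled as biological replicates. The 0 min cultures served as the baseline, and no group carried a genetic change according to the labels. Signals were read on Affymetrix Mouse Gene ST 1.0 arrays and are given below as deposited, on a log2 scale, so that a difference of 1 is a doubling.

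Glycolysis splits glucose into pyruvate in the cytosol. Pyruvate then either becomes lactate, through lactate dehydrogenase, or enters mitochondria through the mitochondrial pyruvate carrier, where the pyruvate dehydrogenase complex turns it into acetyl-CoA. Glucose enters cells through facilitative transporters, of which GLUT1 (Slc2a1) is abundant in endothelium and glia and GLUT3 (Slc2a3) is the main neuronal form. Lactate and pyruvate cross the plasma membrane through proton-coupled monocarboxylate transporters. In brain, MCT2 (Slc16a7) is best known from neurons, MCT4 (Slc16a3) from astrocytes, and MCT1 (Slc16a1) from endothelium and glia. The pyruvate dehydrogenase kinases switch the complex off by phosphorylation.

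Activity-induced genes were higher after bicuculline was added. The series has no untreated cultures at 30, 180 or 300 min, so drug, handling and elapsed time cannot be told apart. Npas4, an activity-induced transcription factor, was 14.7-fold higher at 30 min than at 0 min (log2 3.88 ± 0.14 SE, adjusted p = 2.67e-09). Fos and Arc were also higher at 30 min, by 2.29 and 2.38 on the log2 scale, and Bdnf, a secreted growth factor, was higher at 300 min by 1.18 (adjusted p = 0.000593). All adjusted p-values are from limma fits across the 19938 genes with Benjamini-Hochberg adjustment, the threshold was 0.05, and n = 2 arrays a time. Replicate arrays correlated at r = 0.985 to 0.990 over all rows, and the SD of the difference between replicates was 0.19 to 0.23. The 14 neuron markers averaged 9.19 to 9.32 on the 180 and 300 min arrays, against 9.19 to 9.25 on the 0 and 30 min arrays. The 12 astrocyte markers were present too, at 6.26 to 6.50 against 6.37 to 6.56. Endothelial and pericyte markers averaged 4.37 to 4.59 against 4.40 to 4.48, with 5 of 10 below the 95th percentile of 1027 olfactory receptor genes (4.46), used as a yardstick for genes that neurons hardly express. Among the 8 marker lists, Slc17a6, a glutamate transporter of synaptic vesicles, was the single gene past the threshold between the later and earlier pairs of times (0.38, adjusted p = 0.0406). In that comparison 2.22% of all genes passed. Slc17a6 passed under 6 of 15 alternative settings. RNA came from whole cultures, so fewer cells of a type and less RNA per cell cannot be told apart. Among the members, Pdk4 alone averaged below the olfactory receptor percentile.

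The promoters of 3 members show the sequence around genes whose behaviour differed: Slc16a1 and Slc2a1, which were higher at the later times, and Ldha, which did not pass the test and 1 of whose windows holds more of the motifs searched. Each window is 300 bases around an annotated start, on the plus strand, from RefSeq for GRCm38.p6. Capitals mark the letters ACGTG or GCGTG, the core of hypoxia-response elements, on either strand, and the full cyclic-AMP response element TGACGTCA.
Slc16a1: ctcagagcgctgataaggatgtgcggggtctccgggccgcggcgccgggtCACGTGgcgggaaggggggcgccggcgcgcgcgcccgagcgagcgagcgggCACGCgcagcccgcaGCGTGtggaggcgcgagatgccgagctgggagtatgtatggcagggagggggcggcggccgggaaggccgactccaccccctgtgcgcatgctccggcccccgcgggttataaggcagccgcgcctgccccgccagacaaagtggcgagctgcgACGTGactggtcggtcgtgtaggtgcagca
Slc2a1: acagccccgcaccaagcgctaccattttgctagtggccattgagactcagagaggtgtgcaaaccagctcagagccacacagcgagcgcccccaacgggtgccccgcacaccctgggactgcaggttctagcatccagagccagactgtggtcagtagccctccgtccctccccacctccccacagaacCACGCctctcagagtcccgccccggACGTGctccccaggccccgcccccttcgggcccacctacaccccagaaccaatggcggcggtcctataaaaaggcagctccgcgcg
Ldha: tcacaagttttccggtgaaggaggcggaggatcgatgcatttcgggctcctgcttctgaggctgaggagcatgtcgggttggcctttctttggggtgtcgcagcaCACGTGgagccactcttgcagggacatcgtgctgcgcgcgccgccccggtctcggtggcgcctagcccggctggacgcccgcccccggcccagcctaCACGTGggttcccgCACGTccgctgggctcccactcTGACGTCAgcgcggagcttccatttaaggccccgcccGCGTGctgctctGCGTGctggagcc
The Slc16a1 window lies at chr3:104638414-104638713 and holds 5 core matches in 4 separate places, none of them part of a full cyclic-AMP element. The Slc2a1 window, at chr4:119108495-119108794, holds 2 core matches. Ldha has 2 windows in the table. The one printed, at chr7:46845554-46845853, holds 7 core matches in 5 separate places together with 1 full cyclic-AMP element, and the other, at chr7:46846832-46847131, holds 2 core matches and no full element. Promoters were given for 28 of the 30 measured genes, with 43 windows in all, and Slc2a3 and Slc16a7 were the other 2. Either core was found, on either strand, in 33 of the 43 windows (76.7%), against 43.8% of all 32851 windows of that length. Windows of the same gene can overlap, as for Aldoa, Pfkm and Pfkfb2, so the same letters can count more than once. The E-box CACGTG, which contains ACGTG on both strands, was found in 14% against 7.15%. The full cyclic-AMP element was found in 2.33% against 1.79%, its shorter form TGACG (contained in the full element on both strands) in 30.2% against 20.8%, and the AP-1 letters TGANTCA in 2.33% against 7.81%. The median GC content of the members' windows was 62%, against 52.7% for all windows, and its part in these shares was not tested. A match describes letters in a window and is not a bound site.

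The glucose uptake genes of the list, Slc2a3 and Slc2a1, were higher at 180 and 300 min than at 0 and 30 min. Slc2a3 read 8.87 and 8.89 at 0 min, 8.82 and 8.84 at 30 min, 9.25 and 9.33 at 180 min, and 9.52 and 9.41 at 300 min. All 4 later arrays lay above all 4 earlier ones. Set as 4 arrays against 4 in the fit of the 4 times, the mean of 180 and 300 min was 9.38 ± 0.11, and that of 0 and 30 min 8.85 ± 0.03 (SD, n = 4 each). The difference was 0.52 ± 0.08 SE, or 1.44-fold, with a 95% interval of 0.35 to 0.70 and an adjusted p of 0.00432 (limma). When every deposited row was tested, with or without a single symbol, the adjusted p was 0.0654. At single times it was 0.41 higher at 180 min than at 0 min (adjusted p = 0.165) and 0.58 higher at 300 min (adjusted p = 0.0547), neither of which passed.

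Slc2a1 read 6.55 and 7.10 at 0 min, 6.67 and 6.65 at 30 min, 7.40 and 7.11 at 180 min, and 7.36 and 7.36 at 300 min. The later arrays again lay above all earlier ones, but 0 min replicate 2 came close to 180 min replicate 2. The means were 7.31 ± 0.13 at 180 and 300 min and 6.74 ± 0.24 at 0 and 30 min (SD, n = 4 each), a 1.48-fold difference of 0.56 (95% interval 0.32 to 0.81, limma adjusted p = 0.0192). Without 0 min replicate 1 the difference was 0.43 with an adjusted p of 0.0820, and the call was also lost without either 30 min array, either 300 min array or 180 min replicate 1 (adjusted p up to 0.0870), and with every row tested (0.193). Against 0 min alone, the changes were 0.43 at 180 min (adjusted p = 0.288) and 0.53 at 300 min (adjusted p = 0.271). The within-array difference of Slc2a3 minus Slc2a1 averaged 2.07 ± 0.17 at 180 and 300 min and 2.11 ± 0.22 at 0 and 30 min (SD, n = 4 each), given as a description.

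**Figure D1:**
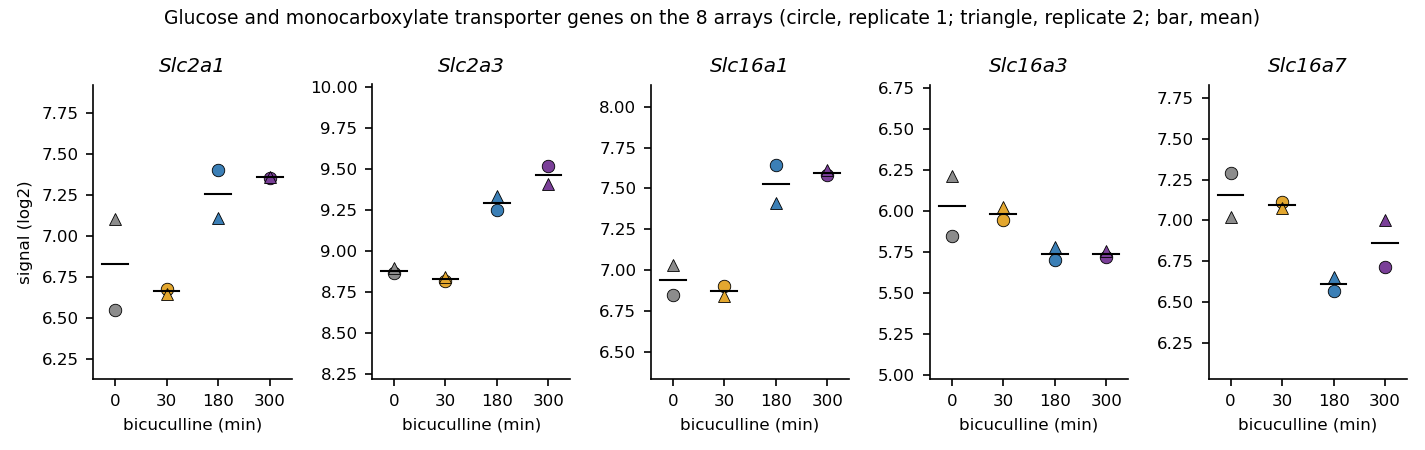
Log2 signal (vertical axis) of the 5 plasma membrane transporter genes against minutes of bicuculline (horizontal axis), with replicate 1 as a circle, replicate 2 as a triangle and the mean as a bar. Slc2a1, Slc2a3 and Slc16a1 lie higher on all 4 arrays of 180 and 300 min than on all 4 of 0 and 30 min, and Slc16a3 and Slc16a7 lie lower.

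The monocarboxylate transporters differed among themselves. Slc16a1, which carries lactate, pyruvate and ketone bodies, read 6.85 and 7.03 at 0 min, 6.91 and 6.85 at 30 min, 7.64 and 7.41 at 180 min, and 7.58 and 7.61 at 300 min. The gap between the lowest later array and the highest earlier one was wider than any replicate difference of this gene. Its mean was 7.56 ± 0.10 at 180 and 300 min and 6.91 ± 0.09 at 0 and 30 min (SD, n = 4 each). The difference was 0.65 ± 0.09 SE or 1.57-fold (95% interval 0.46 to 0.84, adjusted p = 0.00147, limma), the smallest p of any member and rank 47 of all 19938 genes. At 300 min it was 1.58-fold higher than at 0 min (0.66, adjusted p = 0.046), and at 180 min 0.65 higher than at 30 min (adjusted p = 0.0383). At 180 min against 0 min the change was 0.59 (1.5-fold), with an adjusted p of 0.0727. At 30 min it was -0.06 against 0 min, with an interval from -0.33 to 0.21. The 300 min call was lost without any 1 of the 0, 30 or 300 min arrays (adjusted p = 0.0858 to 0.319), and the call against 30 min without any 1 of the 30 or 300 min arrays or without 180 min replicate 1 (adjusted p = 0.0528 to 0.301). The call over both later times held without each array in turn, but with every row tested its adjusted p was 0.0564.

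Slc16a7, the neuronal transporter of high affinity, had lower values at the later times. It read 7.29 and 7.02 at 0 min, 7.11 and 7.08 at 30 min, 6.57 and 6.65 at 180 min, and 6.72 and 7.01 at 300 min. All 4 later arrays lay below all earlier ones, with 300 min replicate 2 just below 0 min replicate 2. Its difference between later and earlier times was -0.39 ± 0.10 SE (95% interval -0.60 to -0.18), and with an adjusted p of 0.0514 it missed the threshold. It passed with median centring, dim genes left out, clusters averaged or a trended prior, and without replicate 2 of 0 min or of 300 min. At 180 min it was -0.54 against 0 min (adjusted p = 0.122), and at 300 min -0.29 (adjusted p = 0.549). Slc16a3, whose product exports lactate from strongly glycolytic cells, read 5.85 and 6.21 at 0 min, 5.94 and 6.03 at 30 min, 5.70 and 5.78 at 180 min, and 5.72 and 5.76 at 300 min. Its later arrays also lay below all its earlier ones, with a difference of -0.27 ± 0.09 SE (adjusted p = 0.188). Within arrays, the signal of Slc16a1 minus that of Slc16a7 averaged 0.83 ± 0.20 at 180 and 300 min and -0.22 ± 0.18 at 0 and 30 min (SD, n = 4 each). This difference of 1.04 describes unequal change of the 2 genes and was not tested.

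The first steps on glucose were not called. Hexokinases trap glucose in the cell as a phosphate ester, and phosphofructokinase commits it to glycolysis. Hk2, the inducible hexokinase, read 5.01 and 5.50 at 0 min, 5.08 and 5.31 at 30 min, 5.03 and 4.77 at 180 min, and 4.95 and 5.11 at 300 min. The 180 min arrays overlap those of 0 min and lie below both of 30 min. The change at 180 min against 0 min was -0.35 (95% interval -0.70 to -0.01, adjusted p = 0.385). Hk1, the constitutive form in brain, had changes of -0.05 at 180 min and -0.04 at 300 min against 0 min, with intervals inside -0.37 to 0.27.

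Pfkl, the liver-type phosphofructokinase subunit, read 7.66 and 8.01 at 0 min, 7.76 and 7.74 at 30 min, 7.40 and 7.47 at 180 min, and 7.67 and 7.72 at 300 min. Both 180 min arrays were below all others, by -0.40 on average against 0 min (95% interval -0.68 to -0.12, adjusted p = 0.226), and at 300 min the change was -0.14. Pfkp, the platelet-type subunit, read 9.10 and 9.19 at 0 min, 8.68 and 8.89 at 30 min, 9.07 and 8.98 at 180 min, and 9.27 and 9.03 at 300 min. It was lowest at 30 min, with a change of -0.36 (adjusted p = 0.887). Pfkm, the muscle-type subunit, had changes of -0.12 at 180 min and -0.13 at 300 min. The 3 bifunctional enzymes that set the level of the allosteric activator of phosphofructokinase, Pfkfb2, Pfkfb3 and Pfkfb4, had changes of -0.20, -0.16 and -0.22 at 180 min and -0.04, -0.13 and -0.22 at 300 min. None of the 3 passed in any comparison, and at 180 min their intervals lay within -0.49 to 0.10.

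**Figure D2:**
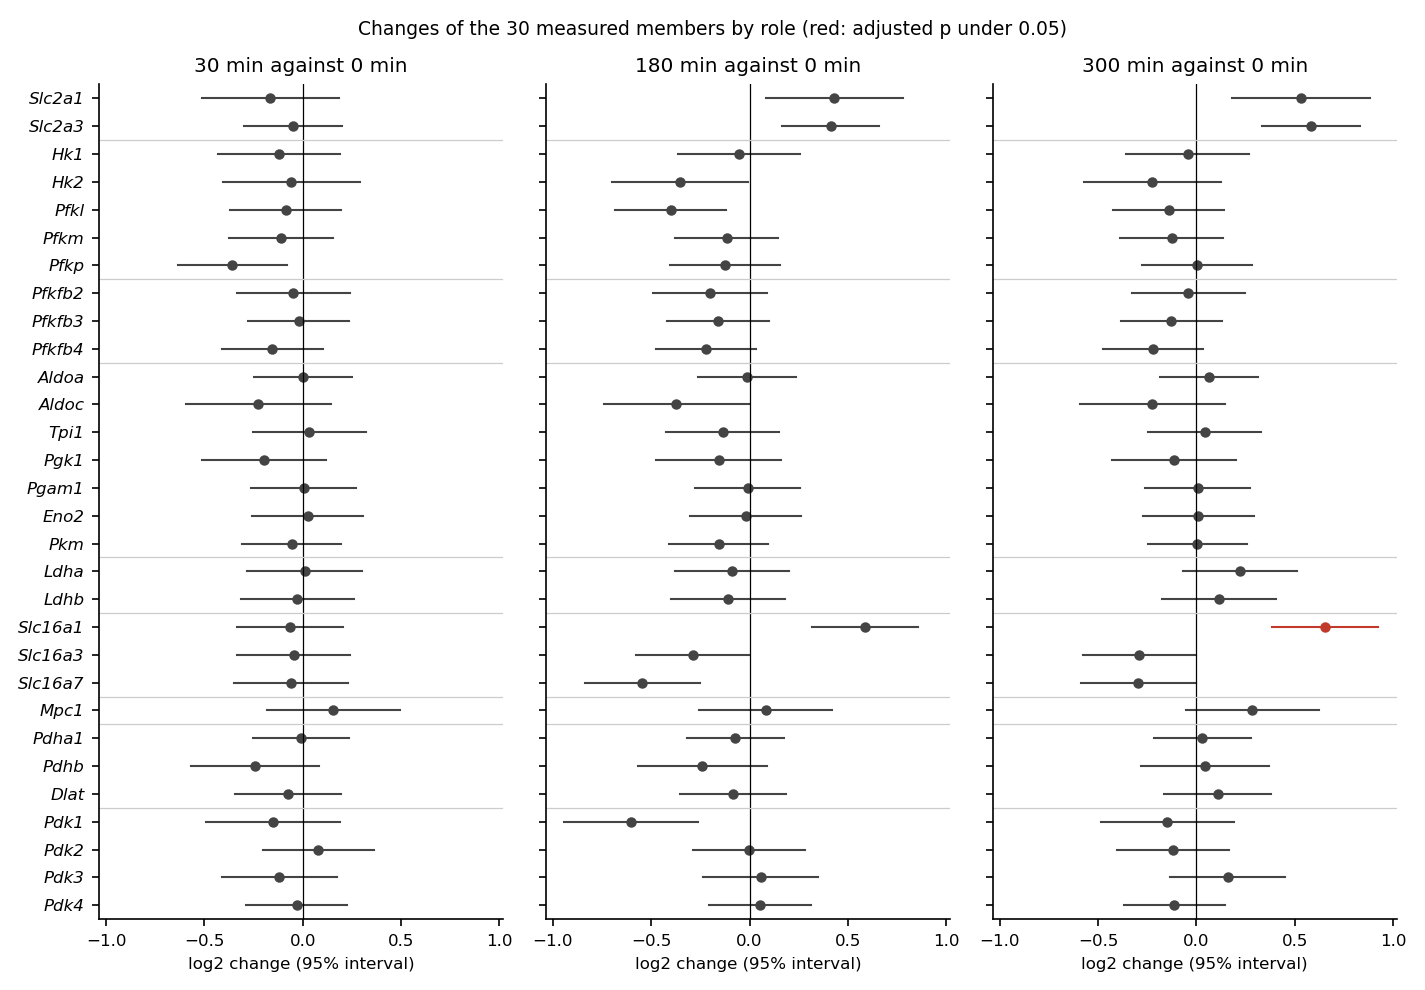
Log2 change against 0 min (horizontal axis, points with 95% intervals) of the 30 measured genes, grouped by role down the page, at 30, 180 and 300 min. Slc16a1 at 300 min, in red, is the single change past the adjusted threshold, and at 180 min most genes other than Slc2a1, Slc2a3 and Slc16a1 lie left of 0.

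Lower glycolysis runs from aldolase to pyruvate kinase. Of its 7 measured genes none passed in any comparison, and their changes ran from -0.37 to -0.01 at 180 min and from -0.22 to 0.06 at 300 min. Every 95% interval at these times lay within -0.74 to 0.33. Aldoc, the aldolase of astrocytes and some neurons, had the lowest of these changes. It read 7.76 and 8.38 at 0 min, 7.95 and 7.73 at 30 min, 7.67 and 7.72 at 180 min, and 7.94 and 7.75 at 300 min, so that the 0 min mean rests on replicate 2. Its change at 180 min was -0.37 (adjusted p = 0.386). Aldoa had changes of -0.01 and 0.06, Eno2 (the neuronal enolase) of -0.02 and 0.01, Pgam1 of -0.01 and 0.01, and Pkm of -0.16 and 0.005, at 180 and 300 min. Tpi1 had changes of -0.14 and 0.04, and Pgk1, the first ATP-making step, of -0.16 and -0.11.

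Lactate dehydrogenase genes were not called either. Ldha, the muscle-type subunit, read 9.98 and 10.13 at 0 min, 9.99 and 10.15 at 30 min, 9.95 and 9.99 at 180 min, and 10.45 and 10.11 at 300 min. The high value at 300 min came from replicate 1, and replicate 2 lay among the 0 min and 30 min values. Its change was 0.22 at 300 min against 0 min (95% interval -0.07 to 0.51, adjusted p = 0.678). Ldhb, the heart-type subunit, had changes of -0.11 at 180 min and 0.12 at 300 min in the cluster used, with an interval at 300 min of -0.17 to 0.40. Its other cluster, of lower mean signal, had changes of 0.02 and 0.002.

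The genes of pyruvate entry were led by a low value of Pdk1 at 180 min that did not pass. Pdk1 read 6.85 and 7.16 at 0 min, 6.84 and 6.87 at 30 min, 6.18 and 6.63 at 180 min, and 6.74 and 6.98 at 300 min. Both 180 min arrays were below all others, and replicate 1 was well below replicate 2. The change at 180 min was -0.60 ± 0.16 SE against 0 min (95% interval -0.94 to -0.26), the largest in size of any member at that time, with an adjusted p of 0.142. At 300 min it was -0.15 against 0 min (adjusted p = 0.851) and 0.45 against 180 min (adjusted p = 0.852). Pdk2 and Pdk3 had changes of -0.002 and 0.06 at 180 min and of -0.12 and 0.16 at 300 min. Pdk2, a widely expressed kinase, read 6.35 and 6.70 at 0 min, 6.64 and 6.57 at 30 min, 6.54 and 6.51 at 180 min, and 6.45 and 6.36 at 300 min, with the 0 min arrays spanning all the other values. Pdk4, a kinase induced by fasting in many tissues, had changes of 0.05 and -0.11, at a signal below the olfactory receptor percentile.

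Mpc1, a subunit of the mitochondrial pyruvate carrier, read 7.62 and 7.77 at 0 min, 8.01 and 7.70 at 30 min, 7.59 and 7.96 at 180 min, and 7.82 and 8.14 at 300 min. Both 300 min arrays were above both 0 min arrays, and the change of 0.28 had an interval from -0.06 to 0.62 (adjusted p = 0.643). Pdhb, the beta subunit of the first enzyme of pyruvate dehydrogenase, read 7.39 and 7.40 at 0 min, 7.36 and 6.94 at 30 min, 7.01 and 7.31 at 180 min, and 7.35 and 7.53 at 300 min. A low array at 30 min and another at 180 min set its changes of -0.24 at both times (adjusted p = 0.965 and 0.548). Pdha1, its alpha subunit, and Dlat, the acetyltransferase core, had changes of -0.07 and -0.08 at 180 min and of 0.03 and 0.11 at 300 min.

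**Figure D3:**
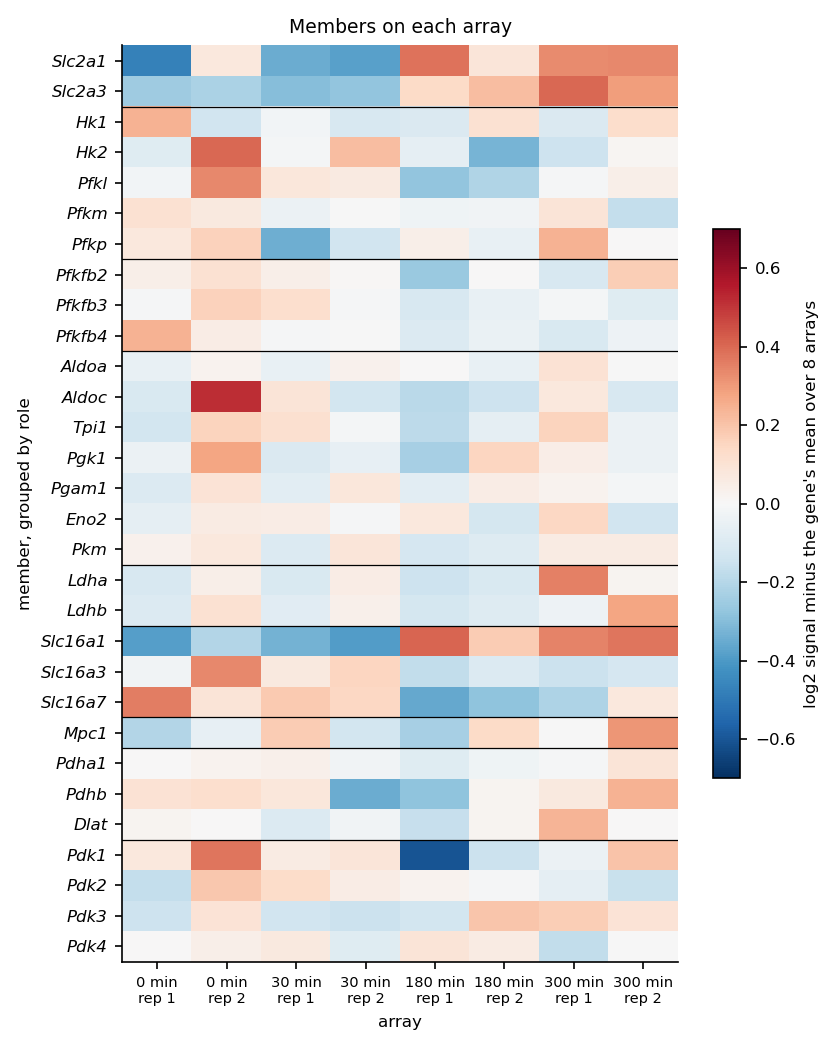
Log2 signal of each measured gene minus its mean over the 8 arrays (colour), with arrays across in time order and genes down the page by role. The plot shows the shift of Slc2a1, Slc2a3 and Slc16a1 between the earlier 4 and later 4 arrays, the low Pdk1 value on 180 min replicate 1, and the high Hk2, Pfkl, Aldoc and Pdk1 values on 0 min replicate 2.

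Counted together, the members that passed were transporters of the plasma membrane. At 30 min against 0 min 0 of 30 passed, where 0.0953% of all genes did, and 1 member (3.33%) had an unadjusted p under 0.05, against 5.11% of all genes. At 180 min 0 passed (0.331% of all genes), with 9 members (30%) under an unadjusted 0.05, against 12.8% of all genes. At 300 min 1 passed (0.286% of all genes), and it was Slc16a1, with 5 members (16.7%) under an unadjusted 0.05, against 8.96% of all genes. At 180 min against 30 min 1 passed, again Slc16a1 (0.502% of all genes). There 6 members (20%) were under an unadjusted 0.05, against 10.5% of all genes. At 300 min against 180 min none of the 19938 genes passed, a share of 0%. Of all genes 1141 (5.72%) had an unadjusted p under 0.05 there, and of the members 2 (6.67%). Between the later and earlier pairs of times 3 of 30 members were higher and 0 lower, where 2.22% of all genes passed (1.2% of all genes higher, 1.01% lower). In that comparison 8 members (26.7%) were under an unadjusted 0.05, against 14.3% of all genes. The moderated F test over the 4 times called Slc16a1 (adjusted p = 0.0126) and Slc2a3 (adjusted p = 0.0288), where 0.813% of all genes passed. Without 0 min replicate 1 or 300 min replicate 2 it called 1 member, and without either 30 min array or 300 min replicate 1 it called 0. In the later against earlier comparison, the arrays of the groups did not overlap for 7 members, 3 higher and 4 lower, and for 8.82% of all genes (3.47% higher, 5.36% lower). The 4 lower ones were Slc16a7, Slc16a3, Pfkfb3 and Pfkfb4.

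**Figure D4:**
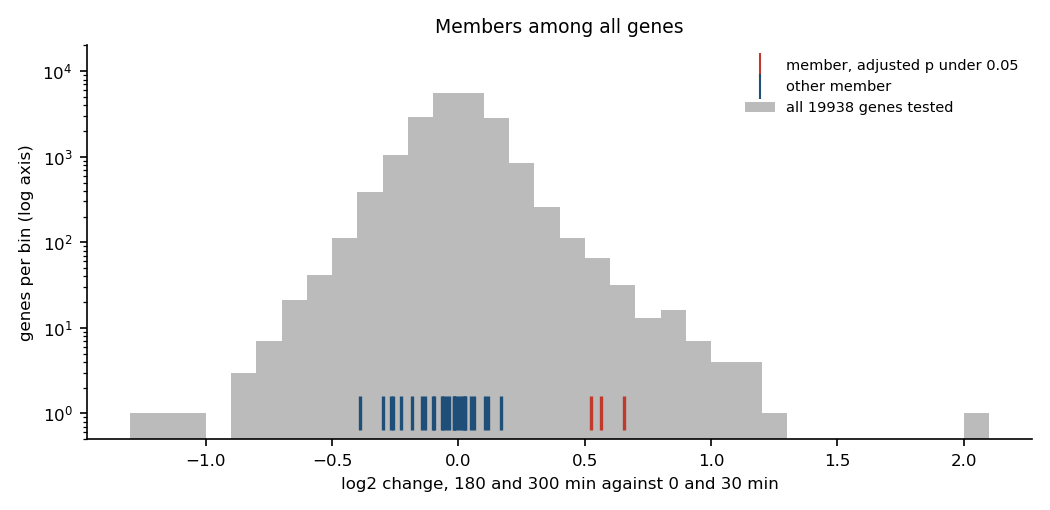
Number of genes (vertical log axis) by log2 change of 180 and 300 min against 0 and 30 min (horizontal axis, bins 0.1 wide, grey) for all 19938 genes tested, with a tick for each member. The 3 members that passed lie between 0.52 and 0.65, and the other 27 lie between -0.39 and 0.17, where most genes are.

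The signs of the members' changes were counted after the data were seen and were not tested. At 180 min against 0 min 24 of 30 had a negative change, with a median of -0.11, whereas 9993 of 19938 genes did, with a median of -0.0007. At 300 min against 180 min 27 of 30 had a positive change (median 0.11), and 10469 of all genes did (median 0.01). The 2 comparisons share the 180 min arrays. By 300 min against 0 min the median was 0.004, with 14 negative changes. Leaving out the 5 transporters, 22 of 25 were negative at 180 min. The array 0 min replicate 2 was high for these genes, since 25 of 30 read higher there than on 0 min replicate 1 (53.2% of all genes), by a median of 0.15 (0.01 over all genes). Without it, 19 of 30 were negative at 180 min, and without 180 min replicate 1, 20 were. Its part in the sign count was not tested further. The arrays of 180 min and 0 min did not overlap for 13 members that were lower and 4 that were higher at 180 min, where 22.6% and 21.1% of all genes did so.

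Second probe sets were available for 5 members and mostly showed equally small changes. The other cluster of Hk1 had changes of -0.05 at 180 min and -0.03 at 300 min. Of the 3 clusters of Pgk1, 2 held identical values, and the third had changes of -0.20 and -0.18. The third cluster of Pgam1 had changes of 0.08 and 0.02, and the other cluster of Pkm of -0.03 and 0.02. The other cluster of Ldhb had changes of 0.02 at 180 min and 0.002 at 300 min, against -0.11 and 0.12 in the one used. Genes with close copies elsewhere in the genome, such as Pgk1 and Pgam1, can share signal with those copies, so that their values are uncertain. For Hk1, Pgk1, Pgam1, Pkm and Ldhb, which cluster lies at the gene itself was not checked. The cluster with the highest mean need not be that one, so the values used for Hk1 and Ldhb are uncertain too.

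The 6 neighbouring pathway lists, 154 measured genes of 163 listed, gave 1 call in the later against earlier comparison and 0 in the others. In the later against earlier comparison 2.22% of all genes passed. The 1 called gene was Arrdc4, an arrestin-domain relative of Txnip known to lower glucose uptake in cultured cells. It read 7.46 and 7.62 at 0 min, 7.52 and 7.51 at 30 min, 7.01 and 7.05 at 180 min, and 7.13 and 6.99 at 300 min. All later arrays lay below all earlier ones, by -0.48 ± 0.08 SE (adjusted p = 0.00873, and 0.104 with every row tested). Txnip itself had a change of 0.01 between the same times (95% interval -0.23 to 0.24). Arrdc4 belonged to the 23 measured other glucose and monocarboxylate transport genes, whose median change was -0.001.

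The other lists had no member past the threshold in any comparison. Among 30 measured glycolysis and glycogen genes outside the members the median later against earlier change was -0.01, and the smallest F-test p belonged to Adpgk, an ADP-dependent glucokinase (0.36, adjusted p = 0.0702), and Pygb, brain glycogen phosphorylase (-0.27, adjusted p = 0.155). Among 34 pyruvate dehydrogenase and citric acid cycle genes the median was -0.002. Its leading genes were Pdpr and Pdp2, a regulatory and a catalytic subunit of the phosphatases that switch pyruvate dehydrogenase back on, with changes of -0.28 and -0.46 (adjusted p = 0.127 and 0.0928). For 14 pentose phosphate and hexosamine genes the median was -0.01, led by Ogt (0.20, adjusted p = 0.454) and Uap1 (0.23, adjusted p = 0.251). Ogt was lowest at 30 min, with a mean of 7.52, against 8.06 at 0 min, 7.94 at 180 min and 8.03 at 300 min. For 32 regulators of glycolytic genes the median was -0.04. They were led by the transcription factors Foxk1 (-0.34, adjusted p = 0.0681) and Mlx (0.33, adjusted p = 0.0874). For 21 hypoxia-responsive genes outside the members it was -0.07. Negative changes numbered 18 of 21 in that list, 21 of 32 among the regulators, 18 of 30 among glycolysis and glycogen genes, 17 of 34 in the citric acid cycle list, 12 of 23 among transport genes and 7 of 14 in the pentose phosphate list, against 10161 of all 19938 genes. The leading hypoxia-responsive genes were Stc2 (0.33, adjusted p = 0.0764) and Ndrg1 (-0.30, adjusted p = 0.0872), neither of which passed.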

How the data were processed

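Affymetrix Mouse Gene ST 1.0 arrays measured RNA of 8 cultures. The deposited table holds log2 signals of 35399 probe sets, as its values (1.22 to 14.96) and array medians (4.84 to 4.88) show; the authors' background correction, normalization, software and genome build are not given in the sources used here, and no further scaling was applied. Genes were named through the platform annotation, updated through RefSeq: 21789 rows carry 1 symbol (21698 matched RefSeq and 0 changed), 1621 several and 11989 none. The highest of several probe sets was kept for 999 genes. The 19938 genes were fitted in R 4.3.3 with limma 3.58.1 (lmFit, contrasts.fit, eBayes), with a mean for each time, 4 residual degrees of freedom and an adjusted p under 0.05 after Benjamini-Hochberg, two-sided. The code was tested on simulated data. At 180 min the 95% intervals of members had half-widths of 0.25 to 0.37, and the 8 arrays limit the precision. The labels call the replicates biological without naming animals or dissections, so the p-values reflect only how far these arrays spread, which may be partly technical.

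Members and lists were chosen with earlier results of these data known. Named with every array's value are members past the threshold, the 12 smallest F-test p-values and the 2 largest changes each way against 0 min. Of the other lists, called genes or the 2 with the smallest F-test p are named. The main fit did not pair samples by replicate number. Of 6 correlations of deviations between times, 0 exceeded 0.1 (range -0.094 to 0.092). Low correlations over all genes cannot exclude a shared preparation, and the labels do not say whether equal replicate numbers were prepared together. Alternatives were quantile or median scaling, a replicate block, every row, dim genes left out, clusters averaged, a trended prior, the compared arrays alone and each array left out. The sign counts were added after the data were seen.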

Additional observations from a re-analysis of the deposited data

How the results depend on the processing

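The members called over both later times numbered 3 with the replicate block, 4 (with Slc16a7 added) with median centring, dim genes left out, clusters averaged or a trended prior, 2 to 4 with 1 array left out, and 0 when every deposited row was tested, where Slc16a1, Slc2a3 and Slc2a1 had adjusted p-values of 0.0564, 0.0654 and 0.193. All genes called in that comparison then numbered 40 instead of 442, and 154 to 372 with 1 array left out. Without each array in turn, Slc16a1 and Slc2a3 kept adjusted p-values of at most 0.0125 and 0.0315. The F test called 2 members, 0 when every row was tested and 0 to 2 with 1 array left out. At 180 min against 0 min 1 member, Slc16a1, was called with quantile scaling, dim genes left out or a trended prior. At 300 min the count was 2 under the same 3 settings. It was 0 with median centring, the replicate block (Slc16a1 adjusted p = 0.0585), every row tested or only the arrays of the times compared, and 0 to 1 with 1 array left out. At 180 min against 30 min it was 2 with a trended prior, 0 with median centring, every row or only the arrays compared, and 0 to 1 with 1 array left out. The cause of these differences was not tested, and some settings themselves bring fewer arrays or a larger number of rows. Quantile scaling split all calls over both later times into 249 higher and 166 lower, and median centring into 201 and 271, against 240 and 202 (at 180 min, 48 and 17, 31 and 30, against 42 and 24).

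Of 699 values of single genes under an alternative, 21 changed sign, all in comparisons in which the gene was not called (lowest adjusted p 0.871 among the changed values). Median centring gave -0.00447 for Ldha at 30 min and -0.0205 for Pfkp at 300 min. With 1 array left out, the 30 min changes ran from -0.15 to 0.025 for Slc16a1, -0.44 to 0.11 for Slc2a1, -0.20 to 0.076 for Slc16a7, -0.23 to 0.14 for Slc16a3, -0.30 to 0.00015 for Pdk1, -0.096 to 0.26 for Pdk2, -0.26 to 0.091 for Pfkl, -0.30 to 0.19 for Hk2, -0.069 to 0.090 for Ldha and -0.54 to 0.086 for Aldoc. At 300 min they ran from -0.30 to 0.0053 for Pdk1, -0.32 to 0.036 for Pfkl, -0.12 to 0.12 for Pfkp, -0.043 to 0.13 for Pdhb, -0.47 to 0.020 for Hk2 and -0.53 to 0.088 for Aldoc. Over all settings, negative changes at 180 min numbered 19 to 24 of 30, positive changes at 300 min against 180 min 21 to 28, and negative changes at 300 min against 0 min 8 to 18. Signal over background limits Pdk4, which lay below the olfactory receptor percentile.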
